A study of Mus musculus with 50 samples.

Results

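The 10 genes described here carry MHC class II antigen presentation and the costimulation that goes with it, and they were taken by name from the 21954 genes of the expression tables. They are the class II chain genes H2-Aa, H2-Ab1 and H2-Eb1, the invariant chain gene Cd74, the peptide exchange genes H2-DMa and H2-DMb1, the class II transactivator gene Ciita, and the costimulation genes Cd80, Cd86 and Cd40. The study asked how wound-bed tissue responds to amputation of the mouse digit tip at different levels, and set cultured macrophages of defined states beside it. The digit samples were wound beds of the distal phalanx (P3) of hindlimb digit 3 from male C57Bl/6 mice of 9 to 10 weeks, with no transgene or drug: 29 non-regenerative digits, labelled with amputation levels of 60% to 80%, and 12 intermediate digits, labelled with 41% to 55%. The study's methods set non-regenerative digits at more than 67%, so some digits labelled non-regenerative do not exceed this cut-off. Among them are all 3 digits at 12 hours, labelled 64% to 67%, and the lowest at 0 hours, labelled 62%. Non-regenerative digits were taken at 9 times, of which 5 (0, 3, 6, 12 and 24 hours) fell within the first day and the others at 3, 7, 14 and 21 days, with 3 digits each and 5 at 7 days. Intermediate digits were taken at 4 of these times (0 and 24 hours, 14 and 21 days), 3 at each. The macrophages were grown from bone marrow of female C57BL/6 mice of 6 to 8 weeks for 7 days in medium conditioned by L929 cells. They were then kept in basal medium (M0), or given interferon-γ with lipopolysaccharide (M1) or interleukin-4 (M2) for 24 hours, with 3 libraries each. The labels call M0 a baseline and give it no time, so if it was taken before those 24 hours, time in basal medium and treatment cannot be told apart. As a model these are cultured, polarized cells of another sex and tissue than the digits, and the labels do not say whether the 3 libraries of a state came from separate cultures, so their spread may be technical.

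Class II molecules are pairs of an α and a β chain that show peptides of engulfed material to CD4+ T cells. In C57BL/6 mice the pair at the cell surface is made from H2-Aa and H2-Ab1, since this strain lacks a functional H2-Ea and the chain made from H2-Eb1 has no partner. New pairs are held by the invariant chain, the product of Cd74, until endosomal proteases such as cathepsin S cut it down. The dimer of H2-DMa and H2-DMb1 then exchanges the remaining fragment for other peptides. Ciita is a coactivator that does not bind DNA itself but is recruited by the proteins on the X and Y boxes of class II, Cd74 and H2-DM promoters, and interferon-γ is the textbook inducer of class II in macrophages. Cd80 and Cd86 are ligands of Cd28 on T cells, and Cd40 is the receptor through which T cells license the presenting cell.

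Of the 10 genes 5 sit in the MHC on chromosome 17. On the GRCm38 build H2-Aa lies at chr17:34282744-34287823 on the minus strand, and the other 4 there lie on the plus strand, with H2-Ab1 at chr17:34257689-34269419, H2-Eb1 at chr17:34305867-34316674, H2-DMa at chr17:34119541-34139101 and H2-DMb1 at chr17:34153072-34160230. Ciita (chr16:10480059-10528418), Cd80 (chr16:38455561-38496335) and Cd86 (chr16:36603869-36666081) share chromosome 16, and Cd40 lies at chr2:165055627-165072948. Reads of H2-DMb1 may be shared with its near-identical neighbour H2-DMb2. H2-Eb1 overlaps an antisense gene (Gm20513), H2-DMa overlaps Brd2 and Ciita overlaps Dexi on the opposite strand, and no source used here says whether counting used strand, so counts of these 3 genes could hold reads of their partners.

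The X and Y boxes could be seen directly in the promoters that the RefSeq table for GRCm38.p6 holds, which run from 250 bases before to 50 bases after a transcription start. Promoters of 5 members were matched (H2-Aa, H2-Eb1, H2-DMa, H2-DMb1 and Cd80), H2-Ab1, Ciita, Cd86 and Cd40 had no entry, and the promoter of Cd74 was not used here. The 3 promoters that hold an X box followed by a Y box are shown 5′ to 3′ on the gene's own strand, with both boxes in capitals, because these 3 genes share the arrangement and yet differed in how they moved between macrophage states.
H2-Aa, chr17:34287774-34288073, minus strand: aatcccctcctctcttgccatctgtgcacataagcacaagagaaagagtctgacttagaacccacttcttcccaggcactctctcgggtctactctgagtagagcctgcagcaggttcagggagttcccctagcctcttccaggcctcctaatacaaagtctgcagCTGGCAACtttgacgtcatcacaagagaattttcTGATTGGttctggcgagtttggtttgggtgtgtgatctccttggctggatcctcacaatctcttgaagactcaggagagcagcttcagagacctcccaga
H2-Eb1, chr17:34305617-34305916, plus strand: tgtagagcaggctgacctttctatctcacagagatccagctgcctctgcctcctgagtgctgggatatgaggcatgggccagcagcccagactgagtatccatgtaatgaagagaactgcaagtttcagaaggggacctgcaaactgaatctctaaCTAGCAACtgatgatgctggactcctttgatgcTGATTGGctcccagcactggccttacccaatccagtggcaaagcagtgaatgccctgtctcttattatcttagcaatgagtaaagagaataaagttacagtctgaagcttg
H2-DMb1, chr17:34152941-34153240, plus strand: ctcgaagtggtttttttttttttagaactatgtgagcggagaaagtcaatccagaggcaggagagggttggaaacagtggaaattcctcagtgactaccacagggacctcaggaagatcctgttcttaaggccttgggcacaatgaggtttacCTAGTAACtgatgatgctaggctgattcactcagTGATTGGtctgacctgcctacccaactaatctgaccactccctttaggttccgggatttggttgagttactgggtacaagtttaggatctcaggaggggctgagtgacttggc

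The letters searched were CTNGNAAC for the X box, written after these sequences had been seen, and TGATTGG for the Y box, on both strands and without overlap between the boxes. The X box started 84 bases before the transcription start in H2-Aa, 94 in H2-Eb1 and 97 in H2-DMb1, and the starts of the boxes lay 34, 33 and 34 bases apart. Among all 32851 promoters 13.2% hold the X letters, 7.82% hold the Y letters, and 0.0822% (27 promoters of 24 genes) hold an X box followed on the same strand by a Y box whose start lies 20 to 45 bases on. The 8 letters of a cAMP response element, TGACGTCA, stood between the boxes of H2-Aa and not in the other promoters shown, and 1.79% of all promoters hold them. These are matches of letters in a window, and binding was not measured.

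Before the results, 2 of the digits need to be named. Total expected counts ran from 1468749 to 13011782 in the 41 digits (median 6835347) and from 15683424 to 27904773 in the 9 macrophage libraries. Non-regenerative replicate 2 at 7 days and replicate 2 at 14 days stood apart from the other digits, with a median Spearman correlation to them of 0.687 and 0.634 against at least 0.812 in the remaining 39. All 10 genes are affected: at 7 days replicate 2 had a count of 0 for 8 of them, and at 14 days replicate 2 held the highest digit level of 6 of them. Results on these times are therefore given with and without the digit. Digits of 5 pairs share the animal mark, date and side in their labels, which do not say whether a shared mark is 1 mouse. By the study's methods digit 3 alone was amputated on each hindlimb, which leaves 1 such digit per side in a mouse. Inside a comparison made here are 2 of these pairs: intermediate replicate 1 with non-regenerative replicate 3 at 14 days, and non-regenerative replicate 1 at 0 hours with replicate 3 at 12 hours. The others are intermediate replicates 2 and 3 at 0 hours with non-regenerative replicates 1 and 2 at 12 hours, and non-regenerative replicate 3 at 3 days with replicate 1 at 7 days, pairs that meet only in the time course and the joint fits of all digits. Levels are normalized CPM (CPM of the expected counts after TMM scaling between libraries) within digits or within macrophages, and normalized TPM (the authors' values per transcript length) where genes are compared with each other.

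In macrophages every one of the 10 genes was detected in all 9 libraries, and they fell into different patterns in M1 and M2. In normalized TPM the order in M0 was Cd74 (416 ± 35.6, SD, n = 3), H2-Aa (199), H2-Ab1 (149), H2-Eb1 (133), H2-DMb1 (53.1), H2-DMa (45.7), Cd86 (34.1), Cd40 (14.6), Cd80 (10.8) and Ciita (5.0). Among neighbours in that order only H2-Ab1 and H2-Eb1 overlapped between their libraries. In M1 Cd40 (564 ± 22) overlapped Cd74 (594 ± 51.1) at the top and Cd86 (386) came before every class II chain, whereas in M2 Cd74 stood alone at 1449 ± 111 and the chains H2-Aa (263), H2-Ab1 (212) and H2-Eb1 (140) came next. Ciita was last in each state.

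**Figure D1:**
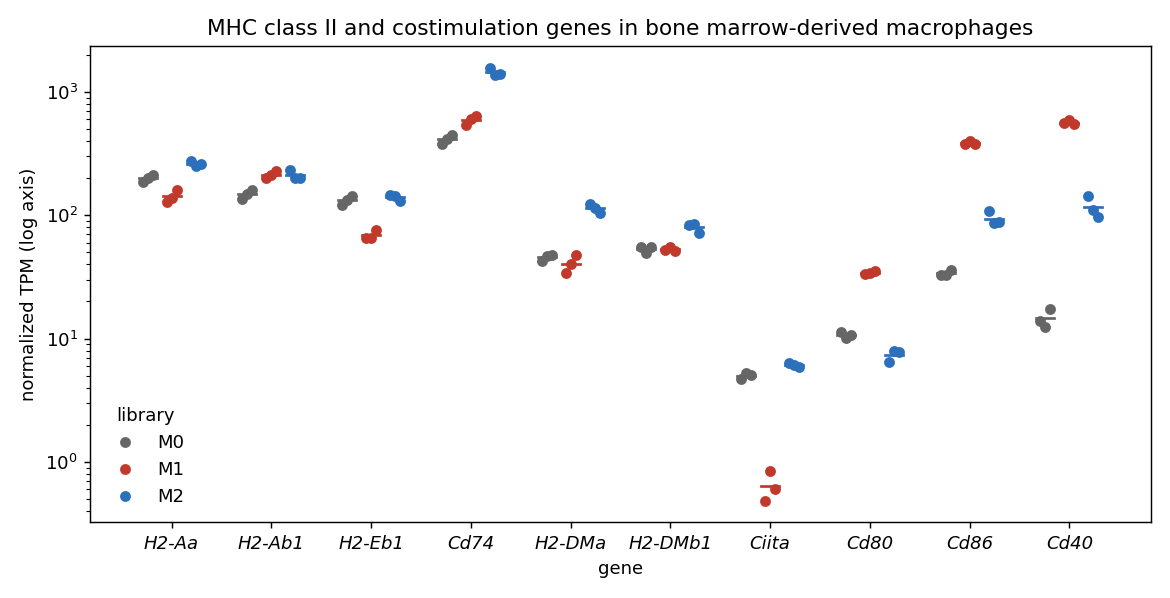
Normalized TPM (log axis) of the 10 genes in bone marrow-derived macrophages, with a point for each of 3 libraries of M0, M1 and M2 and a bar at the mean. Cd74 reaches 1449 in M2, Cd86 and Cd40 reach 386 and 564 in M1, and Ciita drops to 0.642 in M1.

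M1 was compared with M0 to ask what interferon-γ with lipopolysaccharide did to this set. The costimulation genes Cd40, Cd86 and Cd80 rose and Ciita fell, while no class II chain, Cd74 or H2-DM gene passed the 2-fold rule. Of the 10 members 3 were called higher and 1 lower, beside 20.1% and 26% of the 12939 genes tested. A gene was called at an edgeR Benjamini-Hochberg adjusted p-value below 0.05 over all genes tested and when its mean normalized count, with 1 added, differed more than 2-fold. The median log2 difference was 0.27 over the members and -0.09 over all genes. Since these are bulk libraries, fewer expressing cells and less RNA per cell cannot be told apart.

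Cd40 stood at 8.10, 7.61 and 9.60 normalized CPM in M0 and at 283, 282 and 277 in M1. Cd86 stood at 40.8, 40.1 and 44.2 in M0 and at 440, 443 and 436 in M1. For Cd80 the values were 9.37, 8.34 and 8.82 in M0 and 25.6, 25.4 and 27.0 in M1. The 3 M1 libraries agreed closely for each gene and lay above all M0 libraries. The fitted rise was 36.3-fold for Cd40 (log2 5.18 ± 0.07 SE, edgeR adjusted p = 2.09e-14), 11.5-fold for Cd86 (3.52 ± 0.05, adjusted p = 3.85e-14) and 3.21-fold for Cd80 (1.68 ± 0.07, adjusted p = 3.86e-10). Ciita ran the other way, from 12.8, 14.4 and 13.8 in M0 to 1.23, 2.07 and 1.53 in M1, where its expected counts were 23, 25 and 32. That is a fitted fall of 8.06-fold (log2 -3.01 ± 0.16 SE, edgeR adjusted p = 1.91e-09). The 6 markers of B cells, which express Ciita, summed to 9.31 to 10.7 CPM in M0 and 2.32 to 2.72 in M1. In M2 they summed to 2.52 to 3.71, while Ciita stood at 15.4 to 16.8 CPM there. The part of B cells in the Ciita difference was not tested.

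The class II chains did not move together in M1. H2-Aa was 94.3, 103 and 109 normalized CPM in M0 and 61.3, 64.1 and 77.3 in M1. H2-Eb1 was 66.1, 72.3 and 78.0 in M0 and 33.1, 32.0 and 38.5 in M1. H2-Ab1, the partner of H2-Aa, was 74.4, 82.4 and 89.3 in M0 and 104, 106 and 119 in M1. So H2-Aa and H2-Eb1 lay lower and H2-Ab1 higher in M1 than in every M0 library, all short of 2-fold when M1 and M0 were scaled as a pair: the edgeR log2 differences were -0.46 ± 0.08 SE (adjusted p = 0.000194), -0.93 ± 0.08 (adjusted p = 1.99e-07) and 0.55 ± 0.07 (adjusted p = 1.54e-05). Cd74 stood at 222, 242 and 264 in M0 and 293, 320 and 350 in M1, a difference of 0.53 ± 0.08 (adjusted p = 3.39e-05). H2-DMa (-0.15 ± 0.08, adjusted p = 0.088) and H2-DMb1 (0.00 ± 0.06, adjusted p = 0.976) did not pass. H2-Eb1 sat at the edge of the rule: its mean levels above, scaled over all 9 libraries, differed 2.09-fold, and it was called as lower with all 9 in 1 fit (-1.02) and without M1 replicate 3 (-1.01).

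These smaller differences depend on how libraries were scaled. TMM gave M1 libraries factors of 0.742 to 0.770 and M0 libraries 1.16 to 1.21, and scaling by library totals alone moved the median log2 difference of all genes by -0.77 and the share of called genes that were higher from 43.7% to 19.0%. Under library totals, an alternative chosen after seeing the data, H2-Aa (-1.24) and H2-Eb1 (-1.70) passed as lower, Cd80 (0.91) no longer passed, and H2-Ab1 (-0.22) and Cd74 (-0.24) turned from higher to lower. Ciita (-3.78), Cd86 (2.75) and Cd40 (4.41) were called under both scalings. The ratio of H2-Aa to H2-Ab1 within a library does not depend on this scaling. In normalized TPM it was 1.34 ± 0.0278 (SD, n = 3) in M0 and 0.664 ± 0.0310 in M1, with no overlap, and the ratio of H2-Eb1 to H2-Ab1 was 0.892 ± 0.00435 and 0.321 ± 0.0110. The ratio of Cd74 to H2-Ab1 was 2.80 in M0 and 2.78 in M1, with overlap. An exact two-sided permutation test of 3 against 3 libraries cannot go below p = 0.1, which is the value for both ratios that did not overlap (adjusted p = 0.12 over the 18 ratio comparisons made) and 0.7 for the third.

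**Figure D2:**
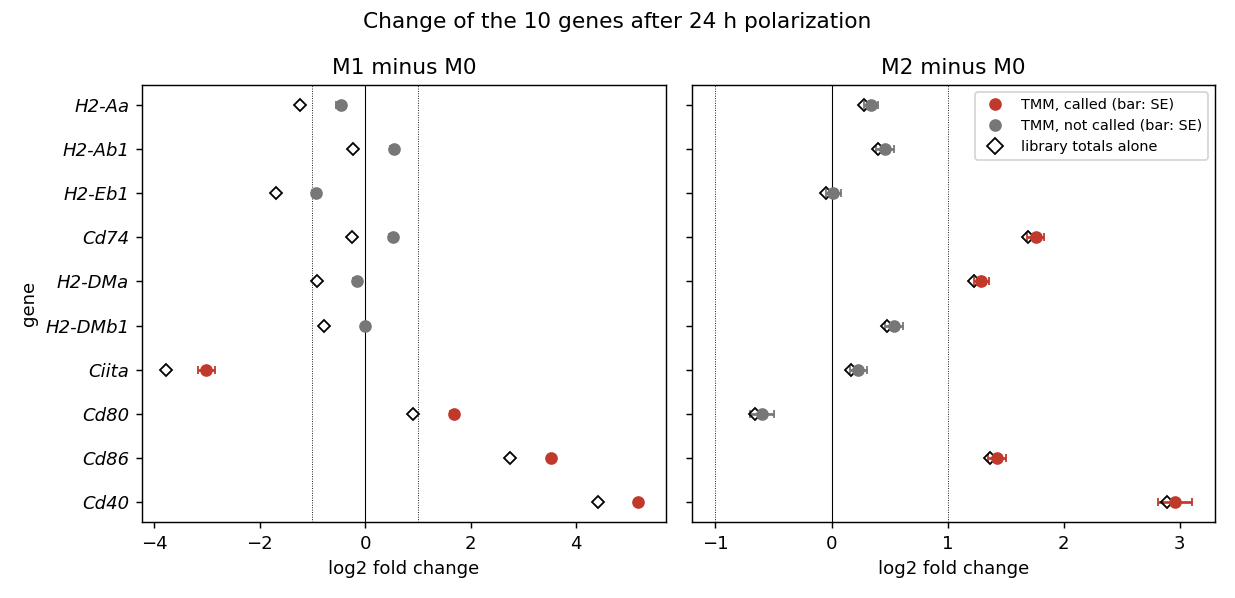
Log2 fold change of the 10 genes in M1 (left) and M2 (right) against M0 from edgeR, with filled circles and SE bars for TMM scaling, red where called, and open diamonds for library totals alone; dotted lines mark 2-fold. In M1 all diamonds lie left of the circles and those of H2-Ab1 and Cd74 cross 0, whereas in M2 circles and diamonds nearly coincide.

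M2 against M0 asked the same of interleukin-4, with the same 3 M0 libraries as reference. Cd74, H2-DMa, Cd86 and Cd40 rose, and no member was called lower: 4 of 10 were called higher and 0 lower, beside 11% and 11.3% of 12976 genes tested. DESeq2 called the same number (4), and its share of all genes called is not given here. In edgeR 9 of the 10 had an unadjusted p below 0.05, as did 76.6% of all genes. The median log2 difference was 0.50 over the members and 0.00 over all genes.

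Cd74 stood at 902, 782 and 805 normalized CPM in M2, above every M0 library (at most 264), and its fitted rise was 3.38-fold (log2 1.76 ± 0.07 SE, edgeR adjusted p = 4.77e-09). H2-DMa went from 30.7, 30.3 and 33.3 to 83.5, 77.7 and 71.5, or 2.44-fold (1.29 ± 0.07, adjusted p = 1.83e-08), while its partner H2-DMb1 was 36.7, 32.4 and 36.3 in M0 and 53.8, 54.6 and 46.2 in M2, 1.45-fold and short of the rule (0.54 ± 0.07, adjusted p = 5.55e-05). Both H2-DM genes thus lay above all their M0 values, but by different amounts, and the ratio of H2-DMa to H2-DMb1 in normalized TPM was 0.865 ± 0.0982 in M0 and 1.41 ± 0.0752 in M2. Cd40 reached 81.4, 61.6 and 55.2 (7.76-fold, adjusted p = 1.53e-08) and Cd86 129, 104 and 107 (2.69-fold, adjusted p = 4.18e-08). Cd80 was the exception among the costimulation genes, at 5.17, 6.32 and 6.21 in M2, below each M0 library, with a log2 difference of -0.60 ± 0.11 (edgeR adjusted p = 0.000347) that was short of 2-fold. The chains H2-Aa (0.34 ± 0.06, adjusted p = 0.000393) and H2-Ab1 (0.46 ± 0.07, adjusted p = 0.000197) differed by less than 2-fold, H2-Eb1 did not pass (0.02 ± 0.07, adjusted p = 0.842, and -0.05 under library totals), and Ciita differed by 0.23 ± 0.07 (adjusted p = 0.0162). Library totals moved the median of all genes from 0.00 to -0.06 and changed no call.

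The direct comparison of M1 with M2 called 7 of the 10 members, beside 20.1% of 12934 genes higher and 27.9% lower in M1. Lower in M1 were Ciita (log2 -3.34 ± 0.14 SE, edgeR adjusted p = 1.60e-11), H2-DMa (-1.53 ± 0.07), Cd74 (-1.32 ± 0.07) and H2-Eb1 (-1.04 ± 0.07), and higher were Cd80 (2.19 ± 0.09), Cd40 (2.13 ± 0.10) and Cd86 (2.0 ± 0.07), with adjusted p-values of at most 1.76e-09. H2-Aa (-0.90 ± 0.07) and H2-DMb1 (-0.63 ± 0.07) were short of 2-fold and passed it under library totals (-1.52 and -1.25), where the share of called genes that were higher went from 41.8% to 21%. Without M2 replicate 1 H2-Eb1 (-0.99) was no longer called, and without M1 replicate 3 H2-Aa (-1.01) was. H2-Ab1 did not differ beyond its spread (-0.01 ± 0.06, adjusted p = 0.909), although under library totals the difference was -0.62. Cd74 therefore stood at 6.85 ± 0.106 per H2-Ab1 in M2 and 2.78 ± 0.0987 in M1, in normalized TPM, without overlap of the libraries. Over H2-Aa, H2-Ab1, H2-Eb1 and Cd74 together the summed level was 499 ± 41.7 CPM in M0, 533 ± 47.7 in M1 and 1147 ± 81.6 in M2.

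The accessory genes of the pathway were followed as a list of 18, of which 17 were tested in macrophages, and its counts and those of the lists that follow stand beside 20.1% of all genes higher and 26% lower in M1, and 11% and 11.3% in M2. In M1 against M0 4 were higher and 0 lower, with a median of 0.59: H2-Oa, whose product restrains H2-DM (1.77), the proteases Ctsl (1.55) and Ctss (1.43), and March1 (1.33), the ubiquitin ligase that removes class II from the surface. In M2 against M0 2 were higher, Ifi30 (1.29), the lysosomal thiol reductase, and Ctss (1.05), and 2 lower, H2-Ob (-2.66) and the protease Lgmn (-1.01), with a median of -0.27. The regulators Rfx5, Rfxap, Rfxank, Nfya, Nfyb and Nfyc that bind the X and Y boxes were not among those called in either. H2-DMb2, the copy beside H2-DMb1, had mean normalized counts of 31.3 in M1 and 46.7 in M0.

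The list of class II induction genes (cytokines, receptors and signalling of interferon-γ, interleukin-4 and interleukin-10) had 9 higher and 1 lower of 13 tested in M1 against M0, with a median of 2.73. The largest were Ifng (6.31, mean normalized counts of 30.8 in M1 and 0.274 in M0), Socs1 (6.30), the feedback inhibitor of Jak kinases, Il10 (4.18) and Irf1 (3.30), and the receptor gene Ifngr1 was lower (-1.67). In M2 4 were higher and 2 lower of 12, among them Socs1 (4.71), Jak2 (2.05) and Irf1 (1.44), with a median of -0.04. Of the other costimulation genes 4 of 7 were higher and 1 lower in M1, with Tnfsf4 (7.27), Cd274 (7.16), Pdcd1lg2 (4.45) and Cd28 (-5.28), and 3 higher and 3 lower in M2, with Pdcd1lg2 (8.87) the largest. Cd274 and Pdcd1lg2 encode the ligands of the inhibitory receptor PD-1, and Tnfsf4 the OX40 ligand. Mean normalized counts of Tnfsf4 and Pdcd1lg2 in M0 were also no higher than 1.42 and 3.91, so fitted changes of these 3 genes depend on the prior count.

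The macrophage label was checked with 10 markers, all of which were detected in each state. Their summed level was 17468 to 19803 CPM in M0, 10978 to 12144 in M1 and 9833 to 10205 in M2, and 3 were higher and 3 lower in M1 (Cd14, Fcgr1 and Itgam against Csf1r, Lyz2 and Mrc1). The 8 markers of dendritic cells, professional class II presenting cells, summed to 29.9 to 32.8 in M0, 67.8 to 69.7 in M1 and 516 to 538 in M2. In M1 2 of them were called higher, Ccr7 (5.47) and Xcr1 (4.39), and 4 lower, Cd209a, Flt3, Itgax and Clec9a. In M2 4 were called higher and 2 lower, with Itgax at 4.94 and Batf3 at 3.23 against Cd209a at -2.86 and Flt3 at -1.92. Their part in the M1 and M2 values of the members was not tested.

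In digits the 4 genes H2-Aa, H2-Ab1, H2-Eb1 and Cd74 were well covered, and the other 6 were scarce. Over the 39 digits without the 2 that stand apart, the median normalized TPM was 51.6 for Cd74 (range 26.1 to 96.4), 42.8 for H2-Aa (21.9 to 118), 37.4 for H2-Ab1 (17.0 to 80.3) and 37.0 for H2-Eb1 (20.02 to 96.4), and these ranges overlapped. It was 2.63 for H2-DMb1, 2.21 for H2-DMa, 2.10 for Cd86, 1.91 for Cd40, 1.15 for Cd80 and 0.278 for Ciita. Over all 41 digits Ciita was at 0 in 7 and never above 27 expected counts, Cd80 was under 10 counts in 23, and H2-DMa, H2-DMb1 and Cd40 were under 10 in 14, 15 and 13. Changes of these genes in digits were thus limited by counting, and a gene that failed the count filter in a comparison was not tested there. The ratio of Cd74 to H2-Ab1 had a median of 1.33 (0.765 to 3.40) and that of H2-Aa to H2-Ab1 a median of 1.14 (0.592 to 2.89) over these 39.

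Of 18 comparisons between pairs of digit groups or of their changes, 16 called no member with edgeR. The exceptions were Cd80 at 12 hours in non-regenerative digits, and H2-Aa and H2-Ab1 at 14 days in intermediate digits. Beside these counts, the share of all genes called higher in non-regenerative digits was 0%, 3.23%, 6.76% and 5.57% for the 4 times of the first day in order, then 0.557% at day 3, 0.0307% at day 7, 0% at day 14 and 0.394% at day 21, and it was 0.0152%, 1.49% and 1.23% at 24 hours, 14 days and 21 days in intermediate digits. The share called lower was 0%, 1.62%, 4.64%, 5.14%, 0.166%, 0.023%, 0% and 0.0583% at the same 8 times in non-regenerative digits, and 0%, 0.187% and 0.165% at the 3 times in intermediate digits. Members with an unadjusted p below 0.05 numbered 0 to 4 in each of the 18, beside 2.012% to 35.1% of all genes. All comparisons with 0 hours share that group's 3 digits at 0 hours. Where digits of 2 times are said below not to overlap, the share of all genes without overlap was not counted. Such statements only describe the values of the digits named. The summed level of H2-Aa, H2-Ab1, H2-Eb1 and Cd74 in non-regenerative digits was 86.5 ± 10.6 CPM (SD, n = 3) at 0 hours, between 103 and 115 from 3 to 24 hours, 151 ± 30.5 at 3 days, and 95.2 ± 35.7 at 21 days. At 7 days it was 138 ± 80.5 in 5 digits or 166 ± 59.7 in the 4 without replicate 2. At 14 days it was 441 ± 418 in 3 digits, or 201 ± 64.5 in the 2 without replicate 2. Intermediate digits stood at 93.5 ± 24.5 at 0 hours, 104 ± 16.6 at 24 hours, 168 ± 17.8 at 14 days and 117 ± 21.2 at 21 days, so that in both groups the mean was highest at 14 days, with and without the digit that stands apart.

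**Figure D3:**
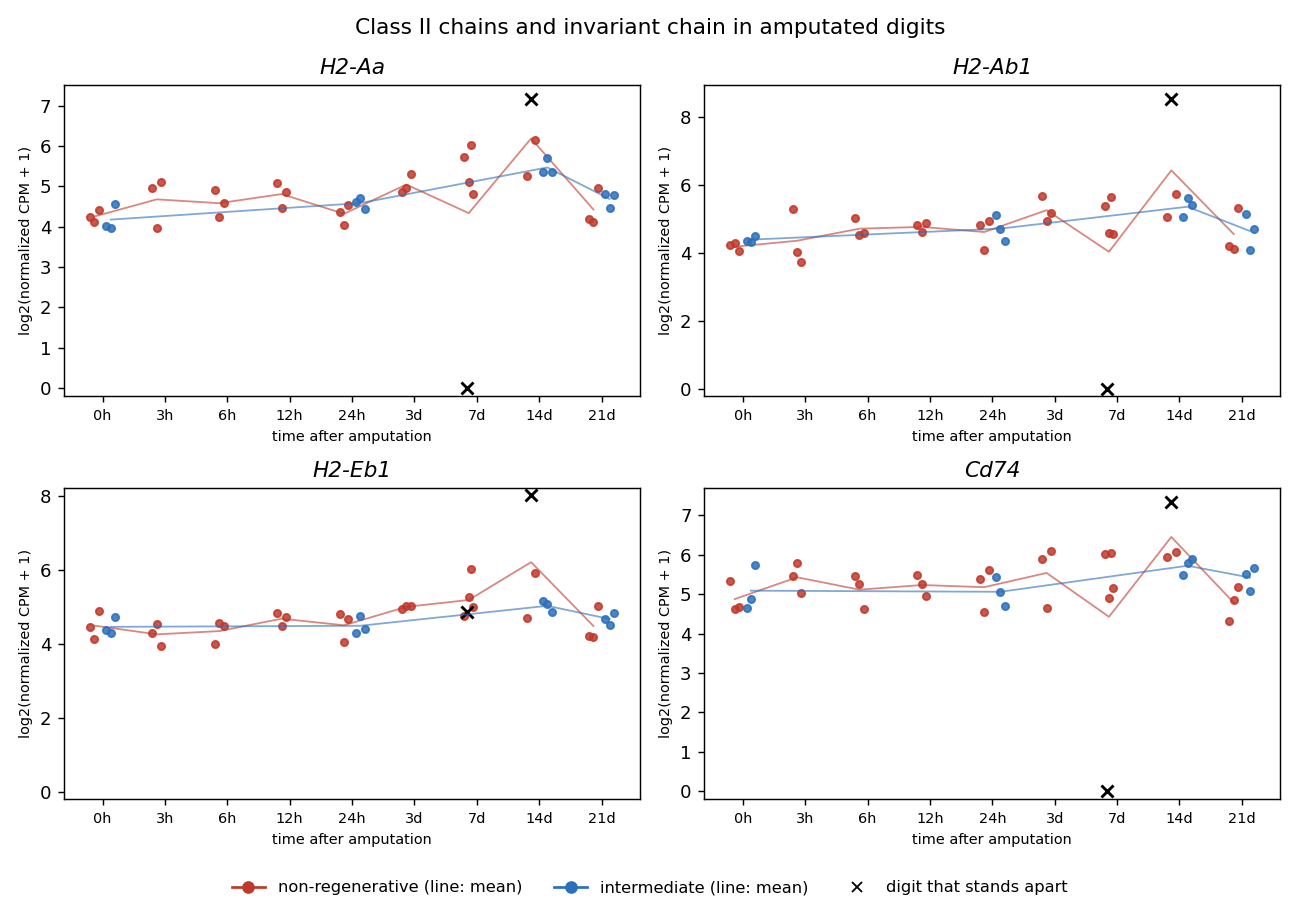
Log2(normalized CPM + 1) of H2-Aa, H2-Ab1, H2-Eb1 and Cd74 in each of 41 digits by time after amputation (times evenly spaced, not to scale), with lines through the means of the log2 values of non-regenerative (red) and intermediate (blue) digits; intermediate digits were sampled at 4 times. Crosses mark the non-regenerative digits that stand apart, at 0 for 3 of the genes at 7 days and above all other digits at 14 days.

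In intermediate digits at 14 days H2-Aa and H2-Ab1, the pair that forms the surface molecule, rose against 0 hours. H2-Aa was 15.2, 14.5 and 22.5 normalized CPM at 0 hours and 39.7, 51.2 and 40.0 at 14 days. H2-Ab1 was 19.4, 19.0 and 21.7 at 0 hours and 32.2, 48.0 and 41.3 at 14 days. The groups did not overlap for either gene, and the log2 changes were 1.35 ± 0.23 SE (edgeR adjusted p = 0.0241) and 1.03 ± 0.20 (adjusted p = 0.0454). They were 2 of 8 members tested, beside 1.49% of 13334 genes called higher. H2-Eb1 (0.60 ± 0.20, adjusted p = 0.22), Cd74 (0.59 ± 0.30, adjusted p = 0.443) and Cd86 (1.64 ± 0.61, adjusted p = 0.291) did not pass, and the median over the tested members was 0.60 against -0.01 over all genes.

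These 2 calls were near the threshold and did not hold in every setting. Alternatives were judged here by an adjusted p below 0.05 and a fitted change of more than 2-fold. Over 15 of them H2-Aa passed in 9 (adjusted p from 6.77e-05 with DESeq2 to 1) and H2-Ab1 in 5 (0.00288 to 1). With all 41 digits in 1 fit neither passed, and leaving out single digits ended the call of H2-Aa for 4 of 6 digits (intermediate replicates 1 and 2 at 0 hours, 2 and 3 at 14 days), with adjusted p-values of 0.069 to 0.150, and that of H2-Ab1 for 5 of 6, the exception being replicate 1 at 14 days. By the dates in their labels 2 digits of each of these times belong to an earlier period and 1 to a later one. H2-Aa was 14.5 and 22.5 against 51.2 and 40.0 in the earlier and 15.2 against 39.7 in the later period, and H2-Ab1 19.0 and 21.7 against 48.0 and 41.3, and 19.4 against 32.2. No test within a period was made, and with the period as a term in a fit of all 41 digits neither gene passed (adjusted p of 1).

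Markers of other cell types were followed beside these genes, and no macrophage, dendritic cell, Langerhans cell or neutrophil marker tested was called by edgeR. The 10 macrophage markers summed to 116, 173 and 335 CPM as lowest, median and highest at 0 hours and 185, 387 and 422 at 14 days in intermediate digits, with 9 tested (median log2 change 0.40). The 6 neutrophil markers summed to 19.7, 23.9 and 41.4 at 0 hours and to 857, 54.4 and 96.4 at 14 days in replicates 1 to 3, without overlap, with 4 tested (median 3.97). The 8 dendritic cell markers summed to 5.08, 6.62 and 10.7 at 0 hours and 11.04, 14.7 and 18.5 at 14 days, without overlap. Of these 8 genes 0, 3 and 6 were at 0 in replicates 1, 2 and 3 at 14 days and 0, 3 and 1 at 0 hours, and 2 could be tested, Itgax (2.38, adjusted p = 0.111) and Zbtb46 (0.09). The 3 Langerhans cell markers, of which Cd207 defines these cells, summed to 398 to 515 and 309 to 553, with Cd207 at 1.03 to 6.10 and 1.55 to 2.84. Of the 6 B cell markers Cd79a and Pax5 were at 0 in every digit at 14 days, when the list summed to at most 3.62. All 4 osteoblast markers were called higher at this time (median 3.34). The part of these cell types in the rise of H2-Aa and H2-Ab1 was not tested.

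In non-regenerative digits at 14 days the spread was set by replicate 2. H2-Ab1 was 17.7, 18.5 and 15.5 normalized CPM at 0 hours and 32.0, 362 and 51.9 at 14 days, and H2-Aa 17.8, 16.4 and 20.3 and then 37.5, 142 and 69.8. H2-Eb1 was 20.96, 16.4 and 28.6 at 0 hours and 25.1, 257 and 58.9 at 14 days, and Cd74 38.99, 23.5 and 24.7 and then 60.9, 159 and 66.1. Every 14-day digit lay above every 0-hour digit for H2-Aa, H2-Ab1 and Cd74, but 25.1 in replicate 1 was within the 0-hour range for H2-Eb1. Replicate 2 was also alone in its H2-DM levels, with 23.9 for H2-DMa and 23.5 for H2-DMb1 against at most 4.94 and 6.07 in the 39 digits, whereas its Ciita level of 0.747 was at the median of all digits and its Cd86 count was 0. Its macrophage markers summed to 776 CPM against 351 and 441 in the other 2, with 4 of 8 dendritic cell and 5 of 6 B cell markers at 0, and the part of any cell type was not tested.

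No member was called in this comparison by edgeR, beside 0% of 13567 genes, and 4 of the 10 had an unadjusted p below 0.05, as did 7.70% of all genes. DESeq2 called 2, and its share of all genes called is not given here. The log2 changes were 3.15 ± 0.95 SE for H2-Ab1 (adjusted p = 0.422), 2.22 ± 0.60 for H2-Aa (adjusted p = 0.334), 2.40 ± 0.86 for H2-Eb1 (adjusted p = 0.569) and 1.75 ± 0.56 for Cd74 (adjusted p = 0.469). Without replicate 2 they were 1.30, 1.58, 0.95 and 1.15, with adjusted p-values of 0.0745, 0.0574, 0.365 and 0.11. With both digit groups in 1 fit and the group as a term, an alternative chosen after seeing the data, the shared change at 14 days without replicate 2 was 1.46 for H2-Aa (edgeR adjusted p = 0.000322), 1.17 for H2-Ab1 (adjusted p = 0.000667) and 1.44 for Cd86 (adjusted p = 0.0467), 3 members called beside 4.71% of genes higher. Leaving out also replicate 3, which may share a mouse with an intermediate digit, kept H2-Aa (1.26, adjusted p = 0.000936) and H2-Ab1 (1.0, adjusted p = 0.00192) beside 3.87% of genes higher, and with every digit included H2-Aa alone was called (1.8, adjusted p = 0.0122) beside 2.24%. In a joint fit of all digits but the 2 that stand apart, with a change of its own for each group, H2-Aa alone was called (1.57, adjusted p = 0.00722), beside 1.56% of genes higher. The fit with the group as a term estimates 1 change for both groups and includes the intermediate digits described above.

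At 7 days 4 of 5 non-regenerative digits were above the 0-hour range for H2-Aa, at 52.3, 33.7, 64.3 and 26.9 normalized CPM, and for H2-Ab1, at 41.0, 23.0, 49.0 and 22.5, and replicate 2 was at 0 for both. The same replicate had H2-Eb1 at 28.2 and Cd86 at 10.9, within the range of the other digits of this time (25.9 to 64.5 and 2.58 to 12.4), and a count of 0 for each remaining member. No member was called by edgeR at this time (0.0307% of 13046 genes higher), and 1 of 8 tested, Cd86 (log2 1.99 ± 0.86 SE, adjusted p = 0.999), had an unadjusted p below 0.05, beside 4.34% of all genes. Without replicate 2 H2-Aa changed by 1.30 with an adjusted p of 0.157, and in a joint fit of all digits but the 2 by 1.29 with an adjusted p of 0.0147, beside 1.19% of genes higher. At 3 days H2-Ab1 stood at 49.8, 29.7 and 34.7, above each 0-hour digit, with a log2 change of 1.14 ± 0.25 that did not pass in edgeR (adjusted p = 0.104, beside 0.557% of 13286 genes higher). It passed in DESeq2, whose share of all genes called is not given here.

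Over the whole non-regenerative course of 9 times 1 member, H2-Eb1, varied with time (edgeR F-test, adjusted p = 0.00398), beside 7.62% of 14434 genes. This call rested on the digit at 14 days: without it H2-Eb1 did not pass (adjusted p = 0.131) and 0 members were called, beside 11% of genes, though 1 member had an unadjusted p below 0.05. Without replicate 2 at 7 days 4 members were called, H2-Aa (adjusted p = 0.00224), H2-Ab1 (0.00262), H2-Eb1 (0.00229) and Cd74 (0.0478), beside 14.3% of genes. Without both digits H2-Aa alone passed (adjusted p = 0.00832), with H2-Eb1 at 0.0504, beside 20.4% of genes. H2-Aa and H2-Ab1 had a Pearson correlation of 0.923 over 41 digits and 0.769 over 39 on the log2 scale, values that share their libraries and depth.

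Among the scarce members Cd80 was the one called after amputation. In non-regenerative digits it was 0.184, 1.17 and 1.2 normalized CPM at 0 hours (1, 12 and 11 expected counts), 0.549, 0 and 8.67 at 3 hours, 2.90, 1.15 and 1.69 at 6 hours, and 4.15, 4.72 and 7.03 at 12 hours (20, 36 and 36 counts). At 24 hours it was 6.01, 0.958 and 10.96. All 3 digits at 12 hours lay above those at 0 hours, whereas at 24 hours replicate 2 did not. The log2 change at 12 hours was 2.54 ± 0.65 SE (edgeR adjusted p = 0.0315), 1 of 10 members called beside 6.76% of 13075 genes higher, so the share is close to that of all genes. At 24 hours it was 2.70 ± 0.92 (edgeR adjusted p = 0.0774), where 0 of 10 members were called beside 5.57% of 13420 genes higher, and 1 had an unadjusted p below 0.05, as did 32.9% of all genes. DESeq2 called Cd80 at 24 hours (adjusted p = 0.0157), and its share of all genes called is not given here.

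The call at 12 hours held in 7 of 15 alternatives, judged by an adjusted p below 0.05 and a fitted change of more than 2-fold. It was lost when any of 5 of the 6 digits was left out (adjusted p of 0.0605 to 0.119, the exception being replicate 1 at 0 hours, with 0.0314), and also in a joint fit of all 41 digits (2.56, adjusted p = 0.375). Replicate 1 at 0 hours and replicate 3 at 12 hours share their mark, date and side, and without the latter the adjusted p was 0.119. All 3 digits at 12 hours carry dates of the earlier period but only 1 of those at 0 hours does, the one at 0.184. No test within a period was made, and with the period as a term the change was 2.19 (adjusted p = 0.561). In the same comparison 5 of 5 tested neutrophil markers and 3 of 10 macrophage markers (Cd14, Fcgr1 and Itgam) were called higher, and Itgax, a dendritic cell marker, rose by 2.79 on the log2 scale. Neutrophil markers summed to 10.7 to 30.2 CPM at 0 hours and 215 to 529 at 12 hours, macrophage markers to 148 to 240 and 307 to 482. The part of these cells in the Cd80 value was not tested. The other members at 12 hours included H2-Aa (0.60 ± 0.24, adjusted p = 0.108) and H2-Ab1 (0.61 ± 0.20, adjusted p = 0.069), which did not pass.

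**Figure D4:**
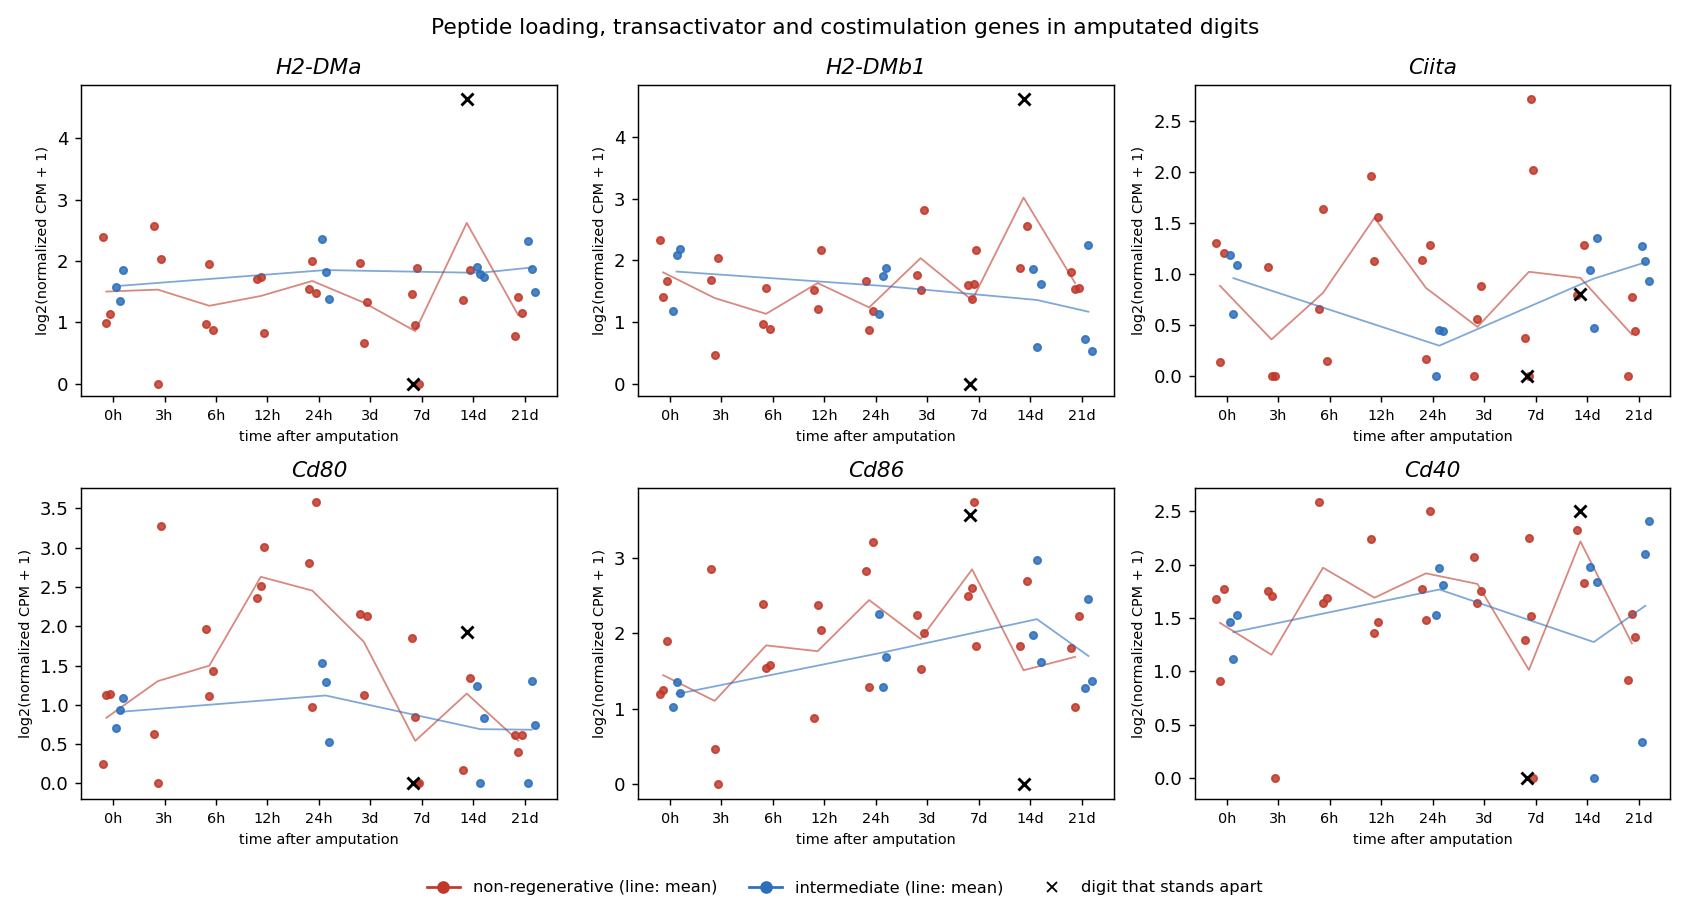
Log2(normalized CPM + 1) of H2-DMa, H2-DMb1, Ciita, Cd80, Cd86 and Cd40 in each of 41 digits by time after amputation (times evenly spaced, scales differ between panels), with lines through the means of the log2 values of non-regenerative (red) and intermediate (blue) digits. Cd80 in non-regenerative digits is highest at 12 and 24 hours, and crosses mark the digits that stand apart, the one at 14 days being far above all others for both H2-DM genes.

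Cd86 and Cd40 varied between digits without a call in the 18 comparisons. Cd86 ran from 0 to 12.4 normalized CPM over the 41 digits (median 2.56) and Cd40 from 0 to 5.02 (median 2.21). The largest log2 change of Cd86 against 0 hours was at 7 days in non-regenerative digits (1.99), followed by 14 days in intermediate digits (1.64) and 24 hours in non-regenerative digits (1.53 ± 0.69, adjusted p = 0.164). Ciita passed the count filter in 8 of the 18 comparisons and was called in none, with log2 differences between -1.85 and 1.67. Of the accessory list Ctsl alone was called at 12 hours (1.17, 14 tested), and of the induction list 4 of 11 were, led by Il4ra (2.69), the interleukin-4 receptor chain.

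Intermediate and non-regenerative digits were compared at each shared time to ask whether the level of amputation mattered, and no member was called at any of the 4 times in edgeR, DESeq2 or limma, nor in the change from 0 hours. In edgeR 0% of all genes were called in either direction at 24 hours, at 14 days and in each test of the change from 0 hours. The missing calls there are thus no result about these members. At 0 hours the 9 tested members differed by log2 -0.48 to 0.27, beside 0% of 13500 genes called in either direction. At 24 hours Cd80 was 1.89, 1.45 and 0.446 normalized CPM in intermediate digits and 6.01, 0.958 and 10.96 in non-regenerative digits, an overlapping pair of groups with a difference of -2.28 ± 0.91 SE (edgeR adjusted p = 0.419), 1 of 9 members with an unadjusted p below 0.05, beside 11.3% of all genes. At 14 days the differences ran from -2.63 for H2-DMb1 to 0.54 for Cd86 (adjusted p of at least 0.862). Without non-regenerative replicate 2 H2-Aa (-0.29), H2-Ab1 (-0.05), H2-Eb1 (-0.40) and Cd74 (-0.28) lay closer together between the groups, as did H2-DMb1 (-1.13) and Cd86 (-0.01). The interaction of H2-Ab1 with the group at 14 days, which tests whether its change from 0 hours differed, was -2.15 ± 0.99 with all digits (adjusted p = 0.855) and -0.26 without that replicate (adjusted p = 1.0). At 21 days Cd74 was 44.8, 33.1 and 49.3 in intermediate and 19.0, 27.8 and 35.3 in non-regenerative digits, which overlap (0.61 ± 0.26, edgeR adjusted p = 0.35), beside 0.0437% of 13736 genes higher and 0.604% lower. By the dates in their labels all 3 intermediate digits at 21 days belong to the earlier period and all 3 non-regenerative digits to the later one. Amputation level and date period therefore cannot be told apart at this time.

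Across digits the class II level went with the macrophage marker level. The log2 of the summed level of H2-Aa, H2-Ab1, H2-Eb1 and Cd74, with 1 added, was compared with that of the summed macrophage markers. The Pearson correlation was 0.613 (Spearman 0.698) over 41 digits and 0.726 (0.720) over the 39. For the dendritic cell markers it was 0.231 and 0.582 (Spearman 0.517 and 0.660). Pearson values were -0.07 and -0.14 for B cell markers and 0.03 and 0.00 for T cell markers. For Langerhans cell markers they were -0.62 and -0.21 (Spearman -0.285 and -0.169). Neutrophil markers had 0.228 and 0.372, and osteoblast markers 0.045 and 0.246. Keratinocyte markers had -0.133 and -0.435, and skeletal muscle markers -0.409 and -0.068. These are descriptions over digits that share times, depth and dates, with no test, and marker sums are dominated by their most abundant genes, Lyz2 among macrophage markers and Cd24a, which keratinocytes also express, among Langerhans cell markers.

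**Figure D5:**
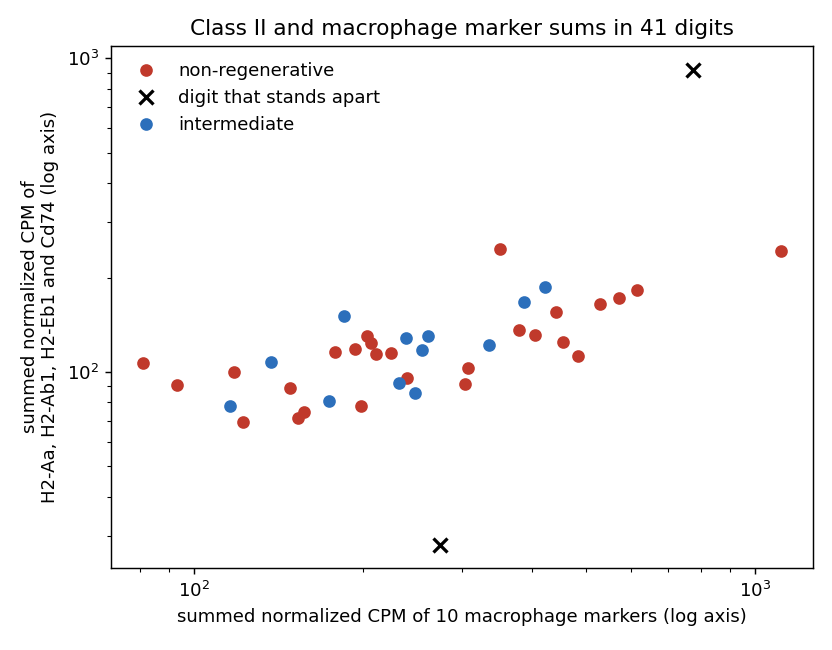
Summed normalized CPM of H2-Aa, H2-Ab1, H2-Eb1 and Cd74 against summed normalized CPM of 10 macrophage markers (both axes log) in 29 non-regenerative (red) and 12 intermediate (blue) digits, with crosses for the 2 digits that stand apart. The points rise together (Pearson 0.726 over 39 digits for the log2 of both sums, each with 1 added), and one cross lies above and the other below them.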

How the data were processed

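Gene expression had been measured by LM-Seq, a poly(A)-based RNA-seq protocol read from 1 end, in 41 digits and 9 macrophage libraries. The authors aligned reads with Bowtie and estimated expected counts per gene with RSEM 1.2.3, and they deposited these expected counts beside a normalized signal, TPM brought to a common scale with median-by-ratio factors. The genome was GRCm38 with Ensembl genes, and the strand setting is not given in the sources used here. Gene names that a spreadsheet had turned into dates (26 of 21954) were restored.

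Expected counts were rounded to whole numbers and tested with edgeR 4.0.16 (filterByExpr, TMM, quasi-likelihood test) in R 4.3.3, fitting only the groups compared and adjusting over all genes tested by the Benjamini-Hochberg method. The study's own test, EBSeq, was not used here. The time course was an F-test with no fold rule. DESeq2 1.42.0, limma 3.58.1 on log2(normalized TPM + 1) for genes with a mean of at least 1, other scalings, no count filter, fits over all digits, date periods and leaving out each library were alternatives. Levels are normalized CPM after TMM over the 41 digits or the 9 macrophage libraries. The scripts were tested on simulated counts. A floor of 3 counts corresponded to 0.108 to 0.191 CPM in macrophages and 0.231 to 2.04 CPM in digits, which sets the precision for scarce genes.

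Every member was named in every comparison, with at most 4 called genes of each other list, taken by size of change. Members and lists were chosen with earlier results of these data known. Groups came from the labels, which give no culture for the macrophages, so p-values measure the spread between these samples. Same-numbered macrophage libraries did not deviate together (correlation of deviations -0.0862 to 0.118, against -0.0993 to 0.111 for other numbers). Regenerative digits were not analysed here. One gene that the rule would name is not reported here.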

Additional observations from a re-analysis of the deposited data

How the results depend on the processing

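Of 379 alternatives to the 22 counts of called members 341 stayed within 1.5 times the count reported, and of 3069 alternatives for 188 single differences 27 lost a call, 36 gained one and 2 turned a passing difference around: H2-Ab1 (-0.22) and Cd74 (-0.24) in M1 against M0 under library totals. These totals do not measure stability, since 16 of the 18 digit comparisons called no member and had no call to lose. Of 15 alternatives each, Cd80 at 12 hours in non-regenerative digits passed in 7. H2-Aa and H2-Ab1 at 14 days in intermediate digits passed in 9 and 5. Without the fold rule 8 members passed at an adjusted p below 0.05 in M1 against M0 and 9 in M2 against M0. At an unadjusted p below 0.05 the members also numbered 8 and 9, beside 86.3% and 76.6% of all genes. Leaving out single libraries gave 4 to 5, 4 to 4 and 6 to 8 members in M1 against M0, M2 against M0 and M1 against M2. With a replicate block the macrophage counts were 4, 4 and 7, the same genes, and the numbers mark only a library. No paired analysis was possible for digits because their labels carry no replicate numbers, and groups compared shared at most 1 combination of animal mark, date and side.

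In non-regenerative digits at 12 hours the count was 0 with all 41 digits in 1 fit, with the date period and without the 2 digits that stand apart, and 0 to 1 when single digits were left out. At 24 hours DESeq2 called 1, and single digits gave 0 to 1. DESeq2 called 1 at 3 days, and all digits without the 2 gave 1 at 7 days. At 14 days the count was 2 with DESeq2, 2 with all 41 digits, 3 with the date period, 1 without the 2, and 1, 3 and 2 with both groups in 1 fit, over every digit, without replicate 2 and without replicates 2 and 3. In intermediate digits at 14 days it was 0 with all 41 digits, 0 with the date period, 1 with limma, 1 without the 2, 1 under library totals and 0 to 2 without single digits. For the time course it was 3 with DESeq2 size factors, 5 with DESeq2, 2 with no filter and 0 to 4 without single digits. For most of these settings the share of all genes called is not given, so the counts are not set against it. The causes were not tested. Library totals moved the share of called genes that were higher from 66.6% to 54.5% at 6 hours, 52.0% to 40.4% at 24 hours and 57.1% to 25% at 7 days in non-regenerative digits. Depth limits Ciita, Cd80, Cd40 and both H2-DM genes in digits.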

Other observations

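Class I presentation was followed beside class II as a list of 11 genes. In M1 against M0 10 were called higher and 0 lower by edgeR (median log2 difference 2.59), beside 20.1% and 26% of all genes, led by the peptide transporter genes Tap1 (3.65) and Tap2 (3.57), Nlrc5 (3.52), the class I counterpart of Ciita, and Tapbp (2.84). In M2 against M0 7 were higher and 0 lower (median 1.63), beside 11% and 11.3%, led by the immunoproteasome gene Psmb10 (2.14), Tapbp (1.83), Tap1 (1.83) and Psmb8 (1.73). In M1 against M2 7 were higher and 1, Erap1 (-1.14), lower, beside 20.1% and 27.9%. Thus Nlrc5 was higher and Ciita lower in M1 than in M0 in the same libraries. In intermediate digits at 14 days, where H2-Aa and H2-Ab1 were called, none of the 11 class I, 14 accessory or 11 induction genes tested was.

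Over the 41 digits the genes whose log2 levels were most like the mean z score of H2-Aa, H2-Ab1, H2-Eb1 and Cd74 among 13751 genes were Slc38a10 (Pearson 0.891), Grn, Arf5, Rras, Qsox1, Tmed3, Ftl1 and Gpc1 (0.862). Over the 39 digits without those that stand apart the same 8 genes had correlations of 0.461 to 0.646. Over these 39, chosen after seeing the data, the 8 most alike were Il2rg (0.780), the lysosomal proteases Ctsb (0.755), Ctss (0.746) and Ctsc (0.743), the macrophage gene Mpeg1 (0.751), the collagen-processing genes Lox (0.741) and Serpinh1 (0.741), and Lgals1 (0.739). The genes most like the mean z score of Cd80, Cd86 and Cd40 over 41 digits were Slc15a3 (0.711), Ccrl2 (0.690) and Cd53 (0.687). These are descriptions over digits that share times and depth.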
